A study of Gallus gallus with 2 samples.

Results

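The genes described here are 10 components of the TGF-beta and activin pathway: the ligands TGFB2 and TGFB3, the receptors TGFBR1, TGFBR2, TGFBR3, ACVR2A and ACVR2B, and the intracellular SMAD2, SMAD3 and SMAD7. They were taken by gene name from a table of 16737 genes, made by sequencing RNA of embryonic chicken (Gallus gallus) hearts. Of the 10, 8 stand in the files under exactly these symbols. The other two were found through RefSeq synonyms, TGFBR1 as ChALK5 and SMAD2 as MADH2. Fertilized eggs, described in the labels as brown leg horn, were kept for 24 h at 37 °C. One group then received 20 µl of phosphate-buffered saline and the other 20 µl of 10 µM spermine NONOate, both into the air sac. Spermine NONOate is a donor of nitric oxide (NO) that also yields spermine. Hearts were removed at 45 h, a time whose starting point the labels leave unclear, and each group was 1 pool of 10 hearts sequenced as 1 library. These are named the vehicle pool and the donor pool. The labels give neither the sex of the embryos nor a group with spermine alone, so NO and spermine cannot be told apart.

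TGF-beta ligands are secreted dimers that bind the type II receptor TGFBR2, which then activates the type I receptor TGFBR1. Activins and Nodal use the type II receptors ACVR2A and ACVR2B with the type I receptor ACVR1B. Both routes phosphorylate SMAD2 and SMAD3, which enter the nucleus with SMAD4, while SMAD7 blocks the receptors. In the chick heart, TGF-beta signalling is known for its part in the change of endocardial cells into the mesenchyme of the valve cushions, and activin-type signals take part in left-right patterning of the embryo.

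Values are the authors' FPKM, a level corrected for transcript length and for the number of mapped fragments, each with a deposited 95% interval that covers estimation within 1 library and not the spread between pools. With 1 library per group there is no replicate check and no test. A difference is the log2 ratio of FPKM + 1 in the donor pool to that in the vehicle pool, a scale on which low genes appear closer than they are. A gene was counted as higher or lower when it was at least 1.5-fold apart on that scale, among the 10824 genes whose mean over both pools reached 1 FPKM. All 10 members passed that filter. The interval widths imply 18246222 fragments or more in the vehicle pool and 28767956 or more in the donor pool. Both are lower bounds and no read count was used, so they do not settle which pool was less deeply sequenced. The members rested on 186 (SMAD7) to 2854 (TGFB3) implied fragments in the vehicle pool and on 218 to 9940 for the same genes in the donor pool. The median of all measured genes was −0.11, and differences are given as deposited, without removing that shift. In bulk tissue, fewer cells of a type and less RNA per cell cannot be told apart.

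Marker genes of several tissues were read beside the tissue label, and the libraries differed in them. The lists were chosen with earlier results of these data known, so the counts are a description and not an independent check. Of 8 listed endoderm markers and 7 listed blood markers, 5 each were found. Beside the counts below, 9.59% of all measured genes were higher in the donor pool and 22.4% lower by the 1.5-fold rule. Summed levels cover every marker found, which for blood (5 found), somite (4 found) and epicardium (5 found) includes markers under the filter. Heart muscle markers were present in both libraries, with 8 of 9 higher in the donor pool and a summed level of 2375 FPKM in the vehicle pool and 15444 FPKM in the donor pool. Of the endothelial and endocardial markers, 5 of 9 were higher and 1 lower, and they summed to 106 and 151 FPKM in the same order. All 4 measured blood markers were higher, and the 5 found summed to 261 and 3399.6 FPKM, with HBZ listed at 0 in the vehicle pool. Markers of other tissues went the other way. Lower in the donor pool were 5 of 6 neural markers (summed 217 and 128 FPKM), 7 of 7 neural crest and pharyngeal markers (244 and 33.7 FPKM), 5 of 5 endoderm markers (1111 and 226 FPKM), both measured somite markers (49.8 and 6.38 FPKM) and 3 of 4 epicardial markers (11.7 and 3.71 FPKM, with UPK3B listed at 0 in the donor pool). None of these 5 lists had a member that was higher. These shifts accompany every difference given below, and their part in them was not tested.

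Among the 10 genes, TGFB3 was higher in the donor pool, 4 genes were lower (ACVR2B, ACVR2A, TGFBR3 and SMAD3), and 5 lay within 1.5-fold (TGFB2, TGFBR1, SMAD2, TGFBR2 and SMAD7). Over all measured genes, 9.59% met the 1.5-fold rule as higher and 22.4% as lower. A count over 10 genes carries no test here and is given only beside those shares. The median difference of the 10 genes was −0.17, beside −0.11 for all measured genes, and single genes ran from −1.23 to 1.08. For the 8 genes found by exact symbol the median was −0.51, so it depends on which rows are counted. It was not computed with the Smad7a row, described below, added to SMAD7. For 7 of the 10 the deposited intervals were apart, beside 70.9% of all measured genes. At a 2-fold threshold on FPKM + 1 only TGFB3 and ACVR2B remained, where 3.65% of all genes were higher and 10.3% lower. Without the added 1, the ratio of donor to vehicle was also beyond 2-fold for TGFBR3 (0.48) and ACVR2A (0.49). No share over all genes was computed for that plain ratio.

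**Figure D1:**
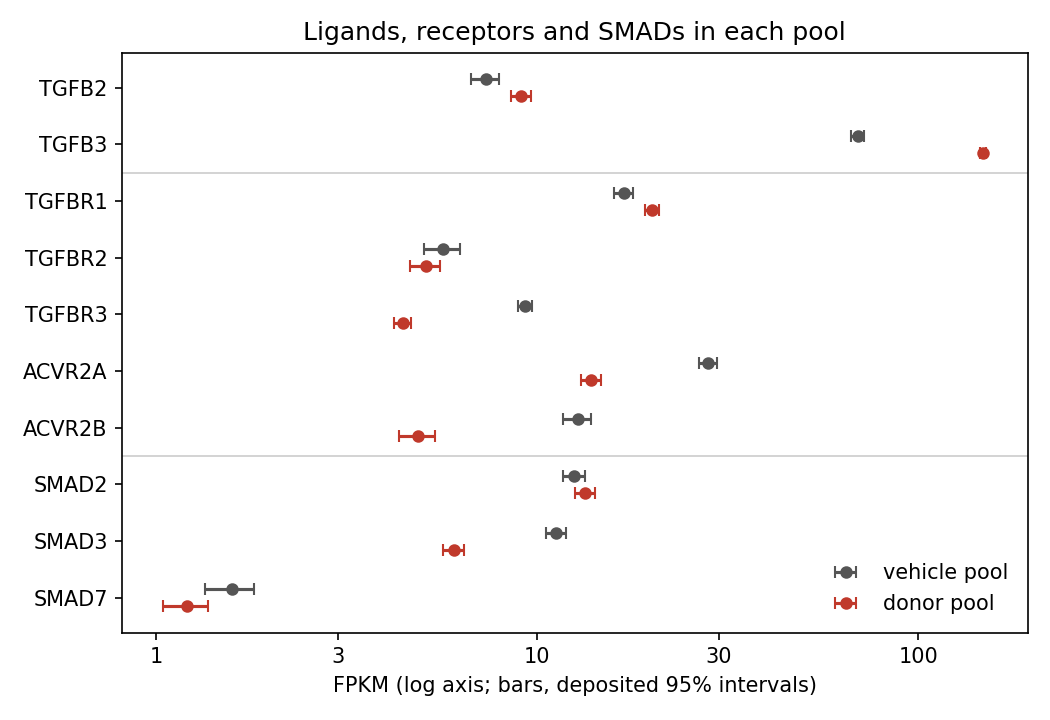
Level of each gene in FPKM on a log axis in the vehicle pool (grey) and the donor pool (red), 1 pool each, with deposited 95% intervals as bars; grey lines part ligands, receptors and SMADs. TGFB3 stands at 69.4 and 148 FPKM, above all other members in both libraries, and ACVR2A, ACVR2B, TGFBR3 and SMAD3 sit to the left in the donor pool.

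Of the ligands, TGFB3 had the highest level of the 10 genes in both pools, and TGFB2 stood much lower. TGFB3, a TGF-beta isoform expressed in the chick heart during cushion formation (ENSGALG00000010346, galGal4 chromosome 5, 37739714 to 37747666), stood at 69.4 FPKM (95% interval 66.8 to 71.97) in the vehicle pool and 148 FPKM (145 to 151) in the donor pool. This placed it above 91.2% of measured genes in the vehicle pool and above 96.2% in the donor pool. The intervals lay far apart, and the log2 difference was 1.08 (1.02 to 1.14), larger than that of 96.8% of measured genes. TGFB2, the isoform that mouse heart needs for normal septation and valves (ENSGALG00000009612, chromosome 3, 18692431 to 18753146), was at 7.32 FPKM (6.72 to 7.93) in the vehicle pool and 9.09 FPKM (8.54 to 9.64) in the donor pool. Its intervals did not overlap, but its difference of 0.28 (0.15 to 0.41) was under 1.5-fold. TGFB3 exceeded TGFB2 by 9.47 times (8.67 to 10.4) in the vehicle pool and by 16.3 times (15.3 to 17.4) in the donor pool. This ratio, taken within a library, does not depend on how the libraries are scaled to each other.

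The signalling receptors for TGF-beta differed little. TGFBR1, the type I receptor kinase also called ALK5 (ENSGALG00000012617, chromosome 2, 56031924 to 56064896), was at 16.9 FPKM (15.9 to 17.9) in the vehicle pool and 19.99 FPKM (19.1 to 20.9) in the donor pool, a log2 difference of 0.23 (0.13 to 0.33). TGFBR2, the type II receptor that binds the ligand (ENSGALG00000011442, chromosome 2, 40385525 to 40447574), was at 5.66 FPKM (5.05 to 6.26) and 5.10 FPKM (4.62 to 5.57), vehicle first and donor second. Its intervals overlapped, and the difference of −0.13 (−0.30 to 0.049) included 0. TGFBR1 exceeded TGFBR2 by 2.99 times (2.66 to 3.39) in the vehicle pool and 3.92 times (3.55 to 4.36) in the donor pool.

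The co-receptor TGFBR3 was lower. TGFBR3, or betaglycan, is a proteoglycan that presents TGFB2 to the signalling receptors and is required for cushion cell transformation in chick explants (ENSGALG00000006038, chromosome 8, 13290000 to 13400096). It was at 9.32 FPKM (8.92 to 9.72) in the vehicle pool and 4.44 FPKM (4.21 to 4.67) in the donor pool. The intervals were apart, and the log2 difference was −0.92 (−1.01 to −0.84), which is 1.90-fold lower on FPKM + 1. Without the added 1, the ratio of donor to vehicle was 0.48. The 3 TGF-beta receptors stood at 0.23, −0.13 and −0.92, and only the non-kinase member was more than 1.5-fold apart.

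Both type II receptors for activin were lower. ACVR2A (ENSGALG00000012444, chromosome 7, 34001588 to 34054530) was at 28.1 FPKM (26.7 to 29.6) in the vehicle pool and 13.9 FPKM (13.02 to 14.7) in the donor pool, a difference of −0.97 (−1.08 to −0.86). ACVR2B, which in mouse is needed for left-right patterning (ENSGALG00000006158, chromosome 2, 5721529 to 5739855), was at 12.8 FPKM (11.7 to 13.9) and 4.86 FPKM (4.33 to 5.39), a difference of −1.23 (−1.41 to −1.06). It was the lowest difference among the 10 genes, at 2.35-fold on FPKM + 1, and 6.58% of measured genes lay below it. Without the added 1, the ACVR2B ratio of donor to vehicle was 0.38. ACVR2A was the more abundant of the pair in each library, by 2.20 times (1.995 to 2.44) in the vehicle pool and 2.85 times (2.53 to 3.24) in the donor pool.

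SMAD3 was lower, while its close relative SMAD2 had overlapping intervals. SMAD2 (ENSGALG00000014697, chromosome Z, 1515759 to 1557565) was at 12.5 FPKM (11.7 to 13.4) in the vehicle pool and 13.4 FPKM (12.6 to 14.2) in the donor pool. Its intervals overlapped, and its log2 difference was 0.086 (−0.033 to 0.21). SMAD3 (ENSGALG00000007870, chromosome 10, 18282943 to 18345447) was at 11.2 FPKM (10.5 to 11.9) and 6.05 FPKM (5.66 to 6.44), a difference of −0.79 (−0.91 to −0.68). The pair stood at nearly equal levels in the vehicle pool, with a SMAD2 to SMAD3 ratio of 1.12 (1.02 to 1.22), and at 2.21 (2.02 to 2.41) in the donor pool. SMAD2 lies on the sex chromosome Z, and the sex of the pooled embryos is not given. The 491 measured genes of Z had a median difference of −0.056, and the 5 of W a median of −0.25.

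SMAD7, the inhibitory SMAD, had the lowest level of the 10 and an uncertain value. The row named SMAD7 (ENSGALG00000027843) lies on an unplaced scaffold, 4441 to 31699, and was at 1.58 FPKM (1.34 to 1.81) in the vehicle pool and 1.21 FPKM (1.04 to 1.37) in the donor pool. Its intervals overlapped, and its log2 difference was −0.22 (−0.39 to −0.052). A separate row named Smad7a (ENSGALG00000018639) lies on chromosome Z, 1242944 to 1267970, near SMAD2, with 3 annotated genes between them. It was at 8.65 FPKM (7.61 to 9.70) and 4.67 FPKM (4.09 to 5.24), a difference of −0.77 (−0.98 to −0.55), so it was lower by the 1.5-fold rule. A RefSeq table of another assembly lists SMAD7 on Z and a second copy, SMAD7B, on W, and reads of near-identical copies can be split between rows. Summed, the rows came to 10.2 and 5.87 FPKM, a difference of −0.71 (−0.89 to −0.52). On that reading SMAD7 would be a further gene counted as lower.

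**Figure D2:**
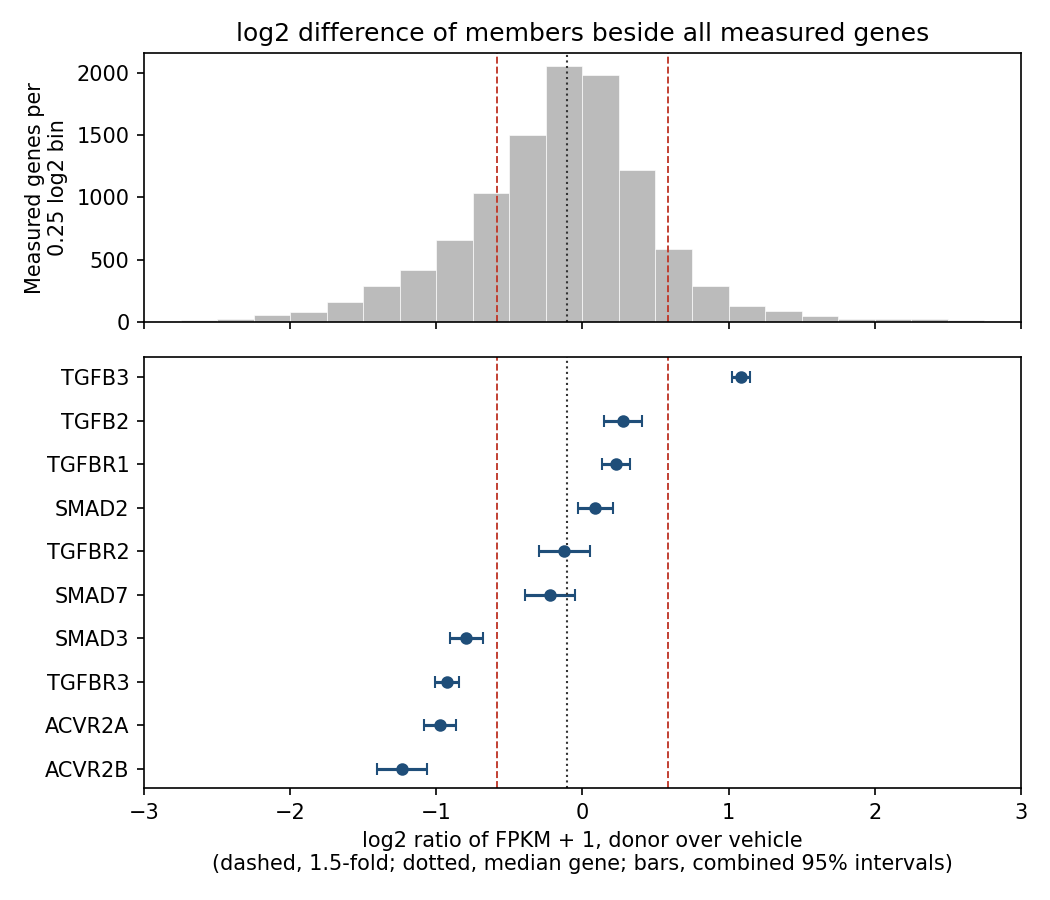
Upper panel, number of the 10824 measured genes per bin of log2 difference; lower panel, log2 ratio of FPKM + 1, donor over vehicle, for each of the 10 genes with combined 95% intervals. Dashed lines mark 1.5-fold and the dotted line the median gene at −0.11; 47 genes below −3 and 17 above 3 lie outside the axis. TGFB3 lies right of the upper dashed line, and SMAD3, TGFBR3, ACVR2A and ACVR2B lie left of the lower one.

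The order of levels differed between the pools below the top place. In the vehicle pool TGFB3 was followed by ACVR2A, TGFBR1, ACVR2B, SMAD2, SMAD3, TGFBR3, TGFB2, TGFBR2 and SMAD7. There ACVR2B overlapped its neighbour SMAD2 in interval, as did SMAD2 and SMAD3, and all other neighbours were apart. In the donor pool TGFB3 was followed by TGFBR1, ACVR2A, SMAD2, TGFB2, SMAD3, TGFBR2, ACVR2B, TGFBR3 and SMAD7. There ACVR2A overlapped SMAD2, TGFBR2 overlapped ACVR2B and ACVR2B overlapped TGFBR3. TGFB2 thus moved from the eighth place to the fifth, and ACVR2B from the fourth to the eighth. These places use the SMAD7 row alone. With Smad7a added, SMAD7 would be at 10.2 FPKM (9.17 to 11.3) in the vehicle pool, between SMAD3 and TGFBR3. In the donor pool it would be at 5.87 FPKM (5.28 to 6.47), between SMAD3 and TGFBR2. In each pool SMAD7 would overlap both of these neighbours in interval, so its exact place is not settled. It would then not be last in either pool, and the genes below it would each stand a place lower. With 2 libraries, no likeness of pattern to other genes could be measured.

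**Figure D3:**
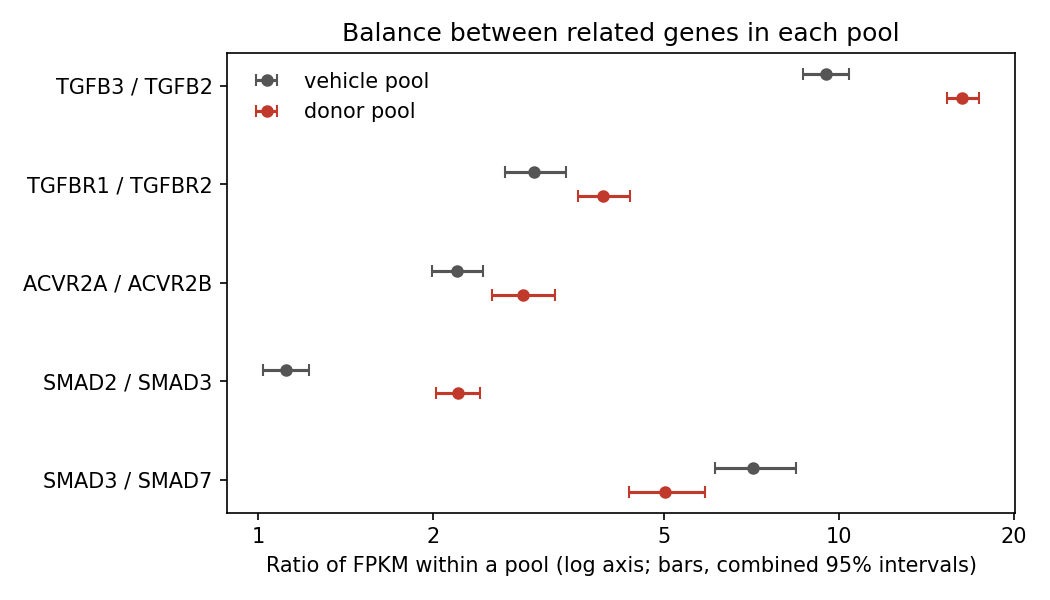
Ratio of FPKM between related genes within the vehicle pool (grey) and within the donor pool (red), on a log axis, with combined 95% intervals as bars. TGFB3 over TGFB2 stands at 9.47 and 16.3 and SMAD2 over SMAD3 at 1.12 and 2.21, while the shift in the other pairs is smaller.

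All 5 ratios had combined intervals that did not overlap between the pools. Single-gene intervals were apart for 70.9% of all measured genes, and no such share was computed for other gene pairs. When every value was set at the end of its interval, only TGFB3 to TGFB2 and SMAD2 to SMAD3 stayed apart. SMAD3 exceeded the SMAD7 row by 7.12 times (6.12 to 8.43) in the vehicle pool and 5.01 times (4.34 to 5.87) in the donor pool. With Smad7a added to SMAD7, SMAD7 relative to SMAD3 was 0.91 (0.80 to 1.03) and 0.97 (0.86 to 1.09), and the intervals overlapped.

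The wider pathway was described by a list of 99 further genes, of which 79 were found in the files and 67 were measured. Of the 67, 9 were higher in the donor pool and 14 lower, beside 9.59% and 22.4% of all measured genes, so the share lower was near the background. Their median was −0.043 beside −0.11. INHBA, INHBB and NODAL were scarce. INHBA, the subunit of activin A, was at 1.30 FPKM (0.99 to 1.62) in the vehicle pool and 1.59 FPKM (1.31 to 1.87) in the donor pool, with overlapping intervals. INHBB, the subunit of activin B, was at 0.79 and 0.25 FPKM, and NODAL was at 0.47 and 0.027 FPKM on 9 implied fragments and 1, so both were under the filter. Of the 11 listed ligands beyond the members, 6 were not matched, GDF1 and GDF3 among them. Of the 5 found, 2 were measured, and neither was 1.5-fold apart. Scarcity therefore holds for the named genes and not for all ligands of the family. The chick Vg1 ligand cVg1, not matched to the list, stood at 26.8 FPKM in the vehicle pool and 30.5 FPKM in the donor pool.

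Other receptors differed in both directions. ACVR1B, the type I receptor for activin and Nodal, was at 17.96 FPKM (16.8 to 19.1) in the vehicle pool and 7.88 FPKM (7.30 to 8.46) in the donor pool, a difference of −1.09 (−1.23 to −0.96). ACVR1B was lower, as were both type II activin receptors. Its row runs from position 1 to 7462 of LGE22C19W28_E50C23, and whether the gene is complete there was not checked. ACVR1, a type I receptor used mainly by BMPs, was higher at 38.2 and 65.99 FPKM, a difference of 0.77 (0.72 to 0.83). CFC1, a co-receptor for Nodal that the files name CFC1B, was higher at 36.9 and 58.95 FPKM, a difference of 0.66 (0.59 to 0.74). ENG, or endoglin, an endothelial co-receptor, was at 27.3 and 35.4 FPKM, a difference of 0.36 (0.27 to 0.45). ENG was not 1.5-fold apart. The endothelial marker list had a median difference of 0.62, and its part in the ENG difference was not tested.

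Among regulators outside the cell, FST stood far from the rest. FST, follistatin, binds and neutralises activin, and was at 18.3 FPKM (17.4 to 19.2) in the vehicle pool and 0.94 FPKM (0.78 to 1.10) in the donor pool. Its difference of −3.32 (−3.46 to −3.18) was the lowest of the 67 pathway genes. BAMBI, a decoy receptor without a kinase, was higher at 39.8 and 64.7 FPKM, a difference of 0.69 (0.64 to 0.74). LTBP1, which holds latent TGF-beta in the matrix, was at 33.8 and 32.004 FPKM with overlapping intervals. Of the 12 measured regulators of this role, 1 was higher and 1 lower, beside 9.59% and 22.4% of all measured genes. The other 10, LTBP1 among them, were within 1.5-fold on FPKM + 1. Of the marker lists, neural, neural crest and pharyngeal, endoderm, somite and epicardial markers had median differences of −2.24, −2.69, −3.15, −2.73 and −1.03. Those of heart muscle, endothelium and blood were 2.64, 0.62 and 3.69. Whether any of these shifts bears on FST was not tested.

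Inside the cell, SMAD6, an inhibitory SMAD that acts mostly on BMP signals, was higher at 17.9 FPKM (17.2 to 18.6) in the vehicle pool and 33.9 FPKM (33.2 to 34.7) in the donor pool. Its difference was 0.89 (0.83 to 0.95). SMAD4 was not matched to a symbol and is not analysed here. Of 24 measured regulators and co-factors, 0 were higher and 4 lower, beside 9.59% and 22.4% of all measured genes, with a median of −0.069. Counts this small do not set the role apart. TGIF2 and TGIF1, homeodomain repressors of SMAD-driven transcription, had differences of −1.20 (−1.48 to −0.91) and −1.16 (−1.28 to −1.05). The acetyltransferase CREBBP, a SMAD co-activator, had −1.05 (−1.12 to −0.98), and its relative EP300 was the remaining lower one at −0.99. The co-repressors SKI and SKIL had −0.16 (−0.34 to 0.036) and 0.30 (0.14 to 0.47).

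Genes known as targets of the pathway in other settings were mixed. Of 24 measured targets, 5 were higher and 8 lower, beside 9.59% and 22.4% of all measured genes, with a median of −0.38 beside −0.11. COL3A1, a fibrillar collagen, was at 41.7 FPKM (40.3 to 43.2) in the vehicle pool and 9.48 FPKM (8.96 to 9.996) in the donor pool, a difference of −2.03 (−2.12 to −1.94). COL1A2, another fibrillar collagen, had −1.48 (−1.53 to −1.44), and SOX9, a factor of cartilage and valve mesenchyme, −1.48 (−1.63 to −1.34). VCAN, versican, a proteoglycan of the cardiac jelly, was higher at 21.5 FPKM (21.05 to 21.9) and 43.7 FPKM (43.2 to 44.2), a difference of 0.99 (0.96 to 1.02). LMCD1, a LIM-domain protein, had 0.83 (0.67 to 1.00), and TIMP3, an inhibitor of matrix proteases, 0.82 (0.59 to 1.06). Many of these genes also respond to other pathways. The neural, neural crest and pharyngeal, endoderm, somite and epicardial marker lists stood lower in the donor pool, with medians from −3.15 to −1.03. The heart muscle, endothelial and blood lists stood higher. The part of these shifts in the differences of the targets was not tested.

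**Figure D4:**
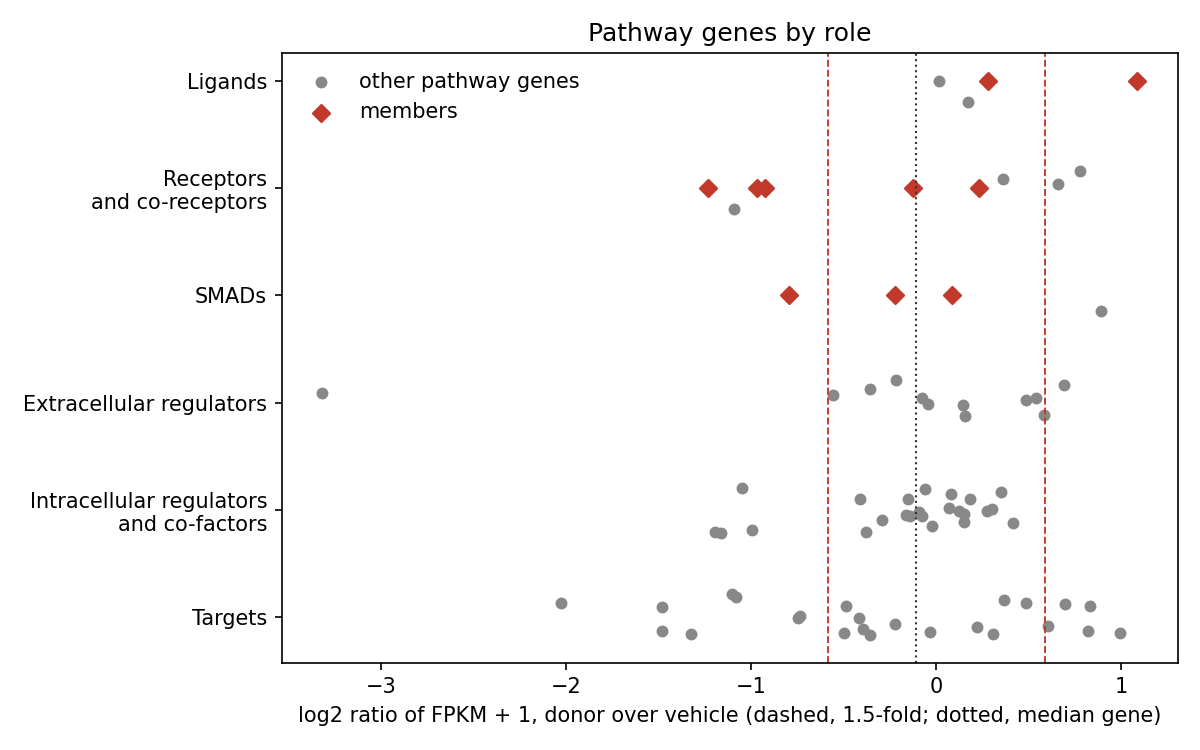
log2 ratio of FPKM + 1, donor over vehicle, for the 10 genes (red diamonds) and 67 other measured pathway genes (grey points, spread vertically for legibility only), by role. Dashed lines mark 1.5-fold and the dotted line the median gene at −0.11; FST is the point at −3.32, and regulators and co-factors inside the cell include 4 points left of the lower line and 0 right of the upper one.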

How the data were processed

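Total RNA from 1 pool of 10 hearts per group was sequenced. The alignment used STAR 2.4.2a and the galGal4 genome of Ensembl release 81, and Cufflinks 2.2.1 gave the expression estimates, per the series design text and the submitters' processing notes. The authors deposited FPKM values with 95% intervals for 17108 gene rows per library, per the file headers; no scaling between libraries beyond FPKM is recorded, and strand was not given in the sources used here. Rows with 1 symbol were summed. Pathway genes were matched by exact symbol, by a RefSeq synonym or by case. Start positions were raised by 1 to count from 1. An interval was read as 2 SD on each side, and the squared ratio of FPKM to SD as implied fragments. Differences and intervals were computed with Python 3.11.15, numpy 2.4.6 and pandas 2.3.3, and tested on simulated data. No locus overlapped that of a member. All 10 members are named. From the pathway list, genes were named by role, up to 3 per direction that were 1.5-fold apart with at least 5 FPKM in the higher library, with 13 fixed genes, of which some are not reported here. EP300 was named after its value was seen. Members and lists were chosen with earlier results of these data known. Alternatives covered pseudocount, filters, scaling, row choice and threshold. No sequence was printed, because no sequence table was used here.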

Additional observations from a re-analysis of the deposited data

How the results depend on the processing

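The counts of 1 member higher and 4 lower held under the other filters and scalings and with the largest row per symbol. A filter at a mean of 5 FPKM left 9 of the 10 measured, without SMAD7. With a pseudocount of 5 SMAD3 was within 1.5-fold (−0.55), which left 3 lower, and with Smad7a added, chosen after seeing the data, SMAD7 was lower (−0.71). On FPKM + 1 at the 2-fold threshold, 1 of the 10 was higher and 1 lower, and of the 67 pathway list genes 0 were higher and 11 lower. Of all measured genes, 395 (3.65%) were higher and 1115 (10.3%) lower at that threshold. Without the added 1, the ratio of donor to vehicle was also beyond 2-fold for VCAN (2.04), EP300 (0.47), TGFBR3 (0.48) and ACVR2A (0.49). At 1.5-fold all measured genes gave 1038 higher and 2420 lower, and 580 and 1427 with a pseudocount of 5. The median of the 10 was −0.054 after upper quartile scaling and −0.51 for the 8 exact symbols, an alternative chosen after seeing the data. TGFBR2 changed sign under 1 alternative, at 0.019, and LTBP1 under 3, at up to 0.091, both within 1.5-fold throughout. Genes higher were 30.02% of all called as deposited, 40.7% with the median gene at 0 and 44.99% after upper quartile scaling. Related-gene ratios apart between libraries numbered 5, and 2 at interval ends, with no share over other gene pairs computed. No single-gene call reversed. No paired analysis was possible because each group is 1 library, and no replicate could be left out. SMAD7, with 186 implied fragments, is the least precise of the 10.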

Other observations

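SMAD6 and SMAD3 are neighbours on chromosome 10 of galGal4, 81.1 kb apart with 0 annotated genes between them, and they differed in opposite directions, at 0.89 and −0.79. Family genes whose symbols were not matched to the pathway list, chosen by symbol after the files were read, also differed among themselves. GDF1 and GDF3 of that list were not matched, and no synonym used here tied cVg1 to either. cVg1, the chick Vg1 ligand, was at 26.8 FPKM (95% interval 24.9 to 28.6) in the vehicle pool and 30.5 FPKM (29.1 to 31.9) in the donor pool, within 1.5-fold. GDF2, also called BMP9, was at 1.74 FPKM (1.39 to 2.10) and 5.92 FPKM (5.38 to 6.47), a log2 difference of 1.34 (1.12 to 1.57). Its endothelial receptor ACVRL1 was at 2.16 FPKM (1.76 to 2.57) and 1.17 FPKM (0.96 to 1.39), a difference of −0.54 (−0.77 to −0.30). ACVRL1 was within 1.5-fold on FPKM + 1 only. Without the added 1, its ratio of donor to vehicle was 0.54, and its intervals did not overlap. On the pathway list but under the filter, LEFTY2, an inhibitor of Nodal, was at 0.198 FPKM on 6 implied fragments in the vehicle pool and listed at 0 in the donor pool.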
